A study of Sus scrofa domesticus with 12 samples.

Results

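The genes described here encode 35 enzymes and carriers, most of them of the mitochondrial oxidation of pyruvate and fatty acids. They were chosen by name from the 11506 genes with a level in porcine skeletal muscle after volumetric muscle loss (VML). They fall into 15 genes of the tricarboxylic acid (TCA) cycle and its cytosolic counterparts, 3 of the pyruvate dehydrogenase complex and 17 of fatty acid beta-oxidation and the carriers that serve it. All 35 names were found and 34 passed the filter on low values, with MDH1 the exception.

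Muscle fibers burn pyruvate and fatty acids in their mitochondria. Pyruvate dehydrogenase turns pyruvate into acetyl-CoA, beta-oxidation shortens fatty acids to acetyl-CoA step by step, and the TCA cycle oxidizes acetyl-CoA to carbon dioxide while loading electron carriers. Slow and fast oxidative fibers are rich in these enzymes, and other cells carry them at lower levels or as other isozymes.

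RNA was taken from the peroneus tertius (PT), the main dorsiflexor of the ankle, of young-adult female Yorkshire Cross pigs 12 weeks post-injury. There were 12 limbs from 11 pigs: 2 sham-operated (Sham, pigs 025 and 026), in which the muscle was exposed and nothing removed, 2 non-repaired (No repair, pigs 017 and 023), 2 Hya-repaired (HA, pigs 016 and 017) and 6 ECM-repaired (ECM-SIS, pigs 013, 014, 018, 021, 022 and 024). All 10 injured limbs had lost a piece from the middle of the muscle. Hya is a hyaluronan hydrogel that the study used as a biomaterial negative control, and the ECM was an acellular sheet sutured into the defect. The labels name every ECM limb as small intestinal submucosa (SIS), whereas the study also used urinary bladder matrix (UBM) and divides these limbs between them, so the 6 are called ECM-repaired and SIS and UBM were not compared. Pig 017 supplied 1 limb to the non-repaired and 1 to the Hya-repaired group, every other pig supplied 1 limb, and with 2 limbs in 3 of the groups the spread between limbs limits each comparison.

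Levels are TPM, a unit that divides by transcript length and scales each library to a common sum, so that genes can be compared in level within a library. Each gene was tested with limma on log2(TPM + 0.5) over the 8782 genes that passed the filter, with Benjamini and Hochberg's adjustment and a threshold of 0.05. A fold change on this scale understates the change of genes of low TPM. The contrast of VML-injured muscle averages the 3 injured groups with equal weight. Between VML-injured and sham-operated muscle the log2 fold change had a median of 0.73 over all tested genes, so most genes lay higher on this scale. For that reason each fold change against sham and its test was also computed after the libraries were rescaled by trimmed means, which centers the bulk of the genes. Summed levels and counts of limbs above or below the sham-operated limbs are given as deposited only.

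The tissue also differed in its cell markers. Summed muscle fiber markers (17 genes tested, of which 12 fell and 0 rose) came to 180253 ± 5447 TPM (SD, n = 2) after sham operation and 45394 ± 24698 TPM (SD, n = 10) after injury. Among the injured limbs this sum ranged from 12994 in an ECM-repaired limb (pig 014) and 14713 in a Hya-repaired limb (pig 016) to 92113 in the other Hya-repaired limb (pig 017). Fibroblast and matrix markers (13 of 13 rose) summed to 1647 and 82725 TPM, and macrophage markers (10 of 10 rose) to 48.6 and 1212 TPM. Of all tested genes 7.66% fell and 49.4% rose between the same groups. The sums for T and NK lymphocyte markers (3 of 4 tested rose) were 3.77 and 28.0 TPM. For adipocyte markers (0 of 6 called) they were 84.0 and 126 TPM, and for endothelial markers (0 of 6 called) 212 and 265 TPM. Sums cover all listed genes with a level, 8 for lymphocytes and 7 for adipocytes, and counts only those that passed the filter. The 8 lymphocyte genes together came to 2.32 TPM in the sham-operated limb of pig 025. Not all 4 could thus pass the filter through the sham-operated group, so the filter favored a rise for some. TPM are shares of a common sum. Fewer fibers, less RNA per fiber and a smaller share beside more RNA of other cells cannot be told apart in whole tissue. The part of these shifts in the results below was not tested beyond the values given.

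Most transcripts for the oxidative enzymes were lower in VML-injured than in sham-operated muscle. Of the 34 tested, 23 fell, IDH1 rose and 10 did not pass the test, against 7.66% of all tested genes that fell and 49.4% that rose. The median log2 fold change of the 34 was -0.94, and 32 of the 34 were negative. Every one of the 10 injured limbs lay below both sham-operated limbs for 21 of the 34 genes, against 8.52% of all tested genes, and above both for IDH1 alone, against 49.8% of all tested genes. Summed over the list, the level was 5730.2 ± 711 TPM (SD, n = 2) after sham operation and 2683 ± 927 TPM (SD, n = 10) in the injured limbs. The call of single genes leaned on both sham-operated limbs. With pig 025 left out 7 genes still passed as lower, and with pig 026 left out 5 did, where the lone sham-operated limb is assumed to vary like the other groups.

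**Figure D1:**
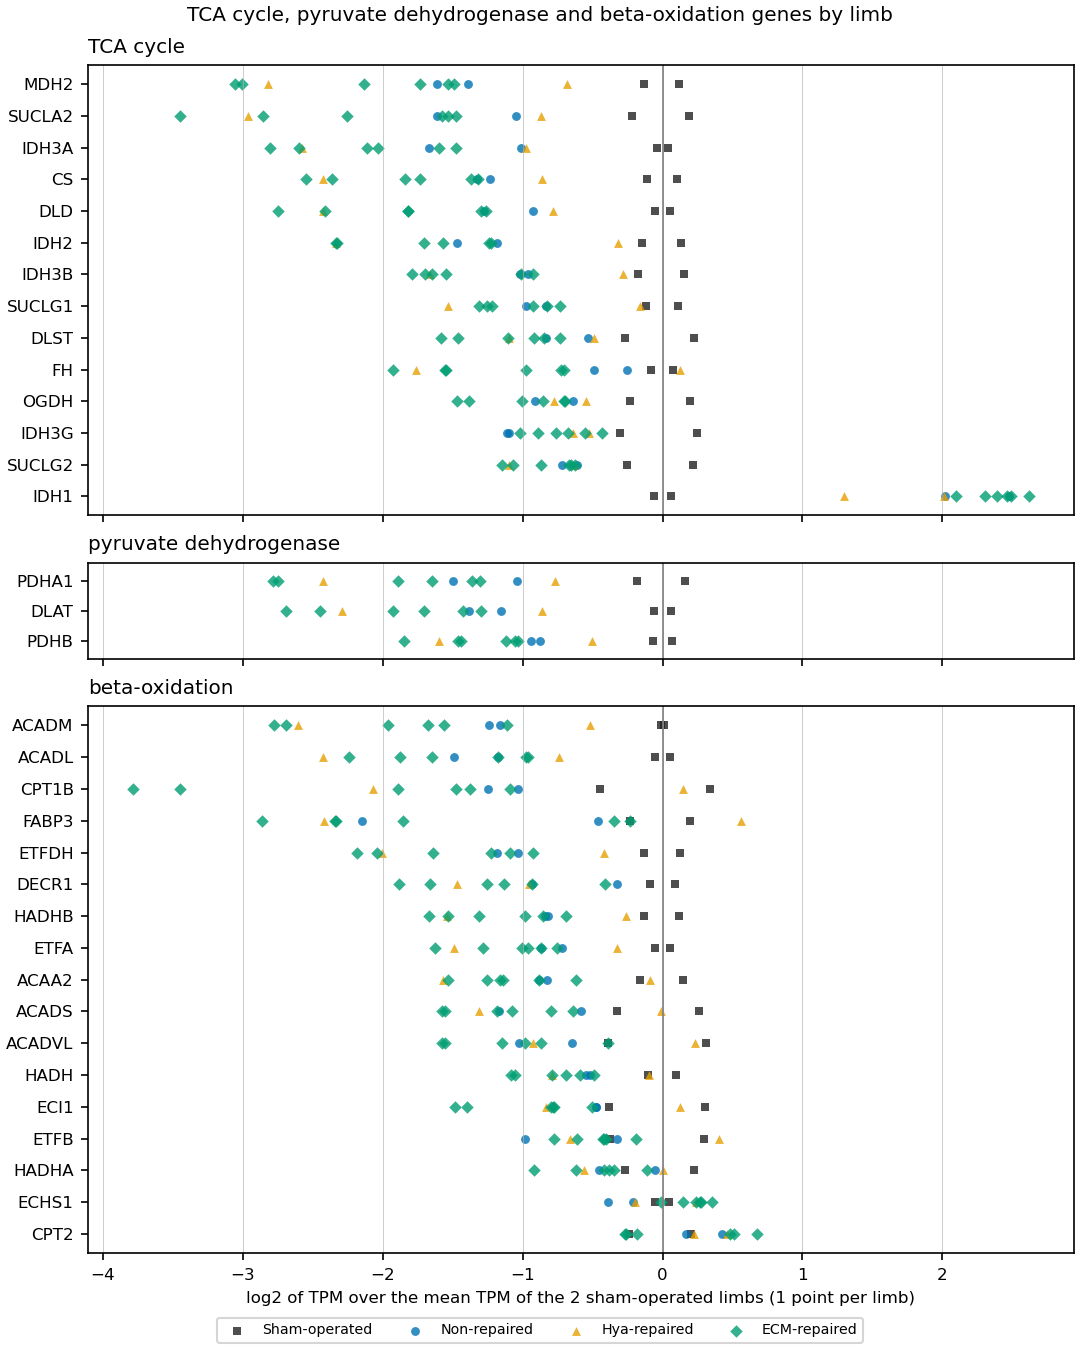
Each point is 1 limb, placed on the x axis by the log2 of its TPM over the mean of the 2 sham-operated limbs, with a row for each of the 34 genes that passed the filter and a panel for each pathway. All points of injured limbs lie to the left of both sham-operated limbs for 21 genes and to the right for IDH1, and the Hya-repaired limb of pig 017 has the highest level among injured limbs for 28 of the 34 genes.

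In the TCA cycle 12 of 14 genes fell, 1 rose and 1, FH, did not pass. The median log2 fold change was -1.02. Citrate synthase (CS), which joins acetyl-CoA to oxaloacetate and opens the cycle, stood at 139 and 161 TPM in the sham-operated limbs of pigs 025 and 026, 59.7 and 63.7 in the non-repaired limbs of pigs 017 and 023, 27.9 and 82.7 in the Hya-repaired limbs of pigs 016 and 017, and 25.6 to 60.2 with a median of 43.5 in the ECM-repaired limbs. No injured limb came near the sham-operated limbs, and the highest was the Hya-repaired limb of pig 017. The log2 fold change was -1.58 ± 0.39 (SE, limma's adjusted p = 0.00423).

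Isocitrate is oxidized by an NAD-dependent enzyme and by NADP-dependent ones, and of the 5 genes here all fell but the cytosolic IDH1. IDH3A, the catalytic subunit of the NAD-dependent mitochondrial enzyme, was at 162 and 154 TPM in the sham-operated limbs, 49.6 and 78.4 in the non-repaired, 26.4 and 80.3 in the Hya-repaired, and 22.5 to 56.6 (median 37.5) in the ECM-repaired limbs. It fell by 1.73 on the log2 scale (SE 0.41, limma's adjusted p = 0.00341), with all injured limbs below both sham-operated limbs. The partner subunits IDH3B and IDH3G fell by 1.12 and 0.77 on the log2 scale (limma's adjusted p = 0.0123 and 0.00878).

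IDH2, the NADP-dependent mitochondrial enzyme and one of the 3 most abundant of these transcripts in sham-operated muscle, was at 431 and 525 TPM in sham-operated, 173 and 211 in non-repaired, 94.7 and 383 in Hya-repaired and 94.6 to 204 (median 154) in ECM-repaired limbs. The fall was 1.45 on the log2 scale (SE 0.44, limma's adjusted p = 0.0145). Within the Hya-repaired group, the limb of pig 017 stood close to the sham-operated limbs and that of pig 016 close to the lowest ECM-repaired limb.

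IDH1 is the cytosolic and peroxisomal NADP-dependent enzyme, which makes NADPH outside mitochondria. Its level was 8.23 and 7.58 TPM in sham-operated, 43.9 and 32.1 in non-repaired, 31.9 and 19.4 in Hya-repaired and 33.8 to 48.6 (median 42.5) in ECM-repaired limbs. All 10 injured limbs lay above both sham-operated limbs, the lowest being the Hya-repaired limb of pig 017. The rise was 2.03 on the log2 scale (SE 0.23, limma's adjusted p = 1.61e-05), and 1.25 after rescaling (limma's adjusted p = 0.00216). It passed in every injured group, with log2 fold changes of 2.32, 2.18 and 1.60 in ECM-repaired, non-repaired and Hya-repaired limbs (limma's adjusted p = 7.22e-06, 0.000108 and 0.00109).

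The 2-oxoglutarate dehydrogenase complex is made of OGDH, DLST and DLD, and all 3 fell. DLD, the lipoamide dehydrogenase that this complex shares with pyruvate dehydrogenase, fell by 1.52 on the log2 scale (limma's adjusted p = 0.00921), and OGDH and DLST fell by 0.80 and 0.83 (limma's adjusted p = 0.0159 and 0.0188). Succinyl-CoA ligase pairs the shared subunit SUCLG1 with SUCLA2 to form ATP or with SUCLG2 to form GTP. SUCLA2 fell by 1.79, SUCLG1 by 0.93 and SUCLG2 by 0.75 on the log2 scale (limma's adjusted p = 0.0175, 0.022 and 0.0141). SUCLA2 ranged among injured limbs from 17.4 TPM in the ECM-repaired limb of pig 014 to 104 TPM in the Hya-repaired limb of pig 017, whereas SUCLG2 kept between 11.7 and 16.9 TPM.

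Malate dehydrogenase closes the cycle. MDH2, the mitochondrial form, was at 456 and 544 TPM in sham-operated, 164 and 191 in non-repaired, 70.9 and 312 in Hya-repaired and 60.1 to 178 (median 132) in ECM-repaired limbs. It fell by 1.79 on the log2 scale (SE 0.52, limma's adjusted p = 0.0116), with every injured limb below both sham-operated limbs. Fumarase (FH), a step earlier, had a log2 fold change of -0.80 (SE 0.42, limma's adjusted p = 0.119). Its level of 128 TPM in the Hya-repaired limb of pig 017 was above the 111 and 123 TPM of the sham-operated limbs, and the other injured limbs lay between 30.8 and 98.1 TPM.

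MDH1, the cytosolic malate dehydrogenase, is listed at 0 in 5 of the 12 libraries, among them the sham-operated limb of pig 025, and at 36.0 TPM in the sham-operated limb of pig 026. The highest injured limb was the ECM-repaired limb of pig 024, at 4.02 TPM. Other cells and muscle use this gene too, so an entry at 0 can be a failed estimate, and no fold change is given.

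All 3 genes of the pyruvate dehydrogenase complex fell, with a median log2 fold change of -1.56. PDHA1 encodes the alpha subunit of the decarboxylase, the part that is switched off by phosphorylation. It was at 377 and 479 TPM in sham-operated, 151 and 208 in non-repaired, 79.4 and 252 in Hya-repaired and 62.2 to 173 (median 126) in ECM-repaired limbs. The fall was 1.59 on the log2 scale (SE 0.46, limma's adjusted p = 0.0112).

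PDHB, its beta subunit, was at 156 and 141 TPM in sham-operated, 77.5 and 81.0 in non-repaired, 48.9 and 105 in Hya-repaired and 41.3 to 72.7 (median 61.5) in ECM-repaired limbs, a fall of 1.09 on the log2 scale (SE 0.28, limma's adjusted p = 0.0064). DLAT, the acetyltransferase core, was at 53.7 and 58.4 TPM in sham-operated, 21.5 and 25.2 in non-repaired, 11.5 and 30.9 in Hya-repaired and 8.69 to 22.8 (median 15.9) in ECM-repaired limbs, a fall of 1.56 (SE 0.39, limma's adjusted p = 0.00471). For each of the 3 genes the injured limbs lay apart from the sham-operated limbs, with the Hya-repaired limb of pig 017 highest among them. Summed, the complex stood at 632 ± 65.4 TPM (SD, n = 2) in sham-operated and 227 ± 87.5 TPM (SD, n = 10) in injured limbs, 2.79-fold lower.

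Beta-oxidation genes were less uniform. Of 17, 8 fell and 9 did not pass the test, with a median log2 fold change of -0.91, and all 10 injured limbs lay below both sham-operated limbs for 6. The sum of the 17 was 2419 ± 378 TPM (SD, n = 2) in sham-operated and 1353 ± 483 TPM (SD, n = 10) in injured limbs, 1.79-fold lower, while that of the TCA cycle was 2679 ± 268 and 1104 ± 378 TPM, 2.43-fold lower. The Hya-repaired limb of pig 017, at 2474 TPM, stood between the sham-operated limbs in the beta-oxidation sum. That place rested on the cytosolic carrier FABP3, at 815 TPM in that limb and 470.3 and 633 TPM in the sham-operated limbs. FABP3 also weighs on the fold of this sum and on the ratio that follows, neither of which was computed without it. The ratio of the TCA cycle sum to the beta-oxidation sum was 1.11 ± 0.063 (SD, n = 2) in sham-operated and 0.822 ± 0.111 (SD, n = 10) in injured limbs, with 9 of 10 injured limbs below both sham-operated limbs.

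Acyl-CoA dehydrogenases take the first step of each round, and they divide the work by chain length. ACADL, the long-chain enzyme, was at 91.4 and 98.1 TPM in sham-operated, 33.7 and 42.0 in non-repaired, 17.6 and 56.6 in Hya-repaired and 20.1 to 48.7 (median 36.1) in ECM-repaired limbs. It fell by 1.45 on the log2 scale (SE 0.40, limma's adjusted p = 0.00911), with all injured limbs below both sham-operated limbs.

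ACADM, the medium-chain enzyme, was at 278 and 281 TPM in sham-operated, 125 and 118 in non-repaired, 45.9 and 196 in Hya-repaired and 40.7 to 129 (median 79.7) in ECM-repaired limbs. Its fall was 1.57 on the log2 scale (SE 0.49, limma's adjusted p = 0.0168), again with no overlap between injured and sham-operated limbs. The short-chain ACADS and very-long-chain ACADVL had log2 fold changes of -0.85 and -0.71 (limma's adjusted p = 0.0506 and 0.102).

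Electrons from these enzymes pass through the electron transfer flavoprotein, made of ETFA and ETFB, to its dehydrogenase ETFDH in the inner membrane. ETFDH was at 116 and 139 TPM in sham-operated, 56.0 and 62.2 in non-repaired, 31.6 and 95.2 in Hya-repaired and 27.9 to 67.0 (median 47.6) in ECM-repaired limbs, a fall of 1.27 on the log2 scale (SE 0.39, limma's adjusted p = 0.0158). ETFA was at 158 and 147 TPM in sham-operated, 83.4 and 92.5 in non-repaired, 54.3 and 122 in Hya-repaired and 49.4 to 90.3 (median 77.1) in ECM-repaired limbs, a fall of 0.92 (SE 0.29, limma's adjusted p = 0.0173). Neither gene had an injured limb within the range of the sham-operated limbs. ETFB, the partner of ETFA in a heterodimer, had a log2 fold change of -0.38 (SE 0.29, limma's adjusted p = 0.282), and its highest level, 130 TPM, was in the Hya-repaired limb of pig 017.

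The later steps were split as well. HADHB, the thiolase-bearing subunit of the trifunctional protein, fell by 0.96 on the log2 scale (limma's adjusted p = 0.0237), and HADHA, its partner, had a log2 fold change of -0.31 (limma's adjusted p = 0.303). ACAA2, another thiolase, fell by 0.91 (limma's adjusted p = 0.0301), DECR1, which prepares unsaturated chains, by 1.01 (limma's adjusted p = 0.0201), and HADH, which oxidizes 3-hydroxyacyl-CoA of shorter chains, by 0.58 (limma's adjusted p = 0.0466). ECI1, the isomerase for unsaturated chains, had a log2 fold change of -0.55 (limma's adjusted p = 0.144).

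ECHS1, the short-chain enoyl-CoA hydratase, was at 169.9 and 182 TPM in sham-operated, 135 and 152 in non-repaired, 207 and 153 in Hya-repaired and 175 to 225 (median 209.7) in ECM-repaired limbs. The groups overlapped, with 6 injured limbs above both sham-operated limbs and 3 below both, and the log2 fold change was -0.02 (SE 0.20, limma's adjusted p = 0.93). CPT2, which remakes acyl-CoA inside the mitochondrion, was at 12.1 and 16.5 TPM in sham-operated, 19.2 and 16.1 in non-repaired, 16.7 and 19.7 in Hya-repaired and 11.9 to 22.8 (median 16.3) in ECM-repaired limbs. It was the sole gene besides IDH1 with a positive log2 fold change, 0.28 (SE 0.29, limma's adjusted p = 0.424), and its groups overlapped too.

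CPT1B and FABP3 act before oxidation and varied most among injured limbs. CPT1B, the muscle form of the transferase that admits long-chain fatty acids to mitochondria, ranged from 4.49 TPM in the ECM-repaired limb of pig 014 to 68.3 TPM in the Hya-repaired limb of pig 017, beside 45.4 and 78.3 TPM in the sham-operated limbs. The log2 fold change was -1.35 (SE 0.70, limma's adjusted p = 0.119) against sham for VML-injured muscle and -2.07 (SE 0.72, limma's adjusted p = 0.0281) for ECM-repaired muscle. FABP3, the fatty acid carrier of the muscle and heart cytosol and the most abundant of these transcripts, was at 470.3 and 633 TPM in sham-operated, 400 and 125 in non-repaired, 103 and 815 in Hya-repaired and 75.8 to 469.9 (median 131) in ECM-repaired limbs. Every injured group held limbs near the sham-operated level and limbs far below it, and the log2 fold change was -1.28 (SE 0.83, limma's adjusted p = 0.202).

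After the libraries were rescaled by trimmed means, 32 of the 34 genes fell, IDH1 rose, and FABP3 had a log2 fold change of -2.10 (limma's adjusted p = 0.0705). On that scale 28.7% of all tested genes fell and 28.7% rose, and the median of the 34 was -1.76. The medians were -1.84 for the TCA cycle (13 of 14 fell), -2.37 for pyruvate dehydrogenase (3 of 3) and -1.72 for beta-oxidation (16 of 17). The 9 genes called on the rescaled values and not as deposited were FH, CPT1B, CPT2, ACADS, ACADVL, HADHA, ECI1, ETFB and ECHS1. Their rescaled log2 fold changes were -1.62, -2.16, -0.52, -1.66, -1.53, -1.13, -1.37, -1.19 and -0.84 in that order (limma's adjusted p from 0.00367 for HADHA to 0.0474 for CPT2). CPT2 changed sign between the scales. IDH1 rose on both.

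**Figure D2:**
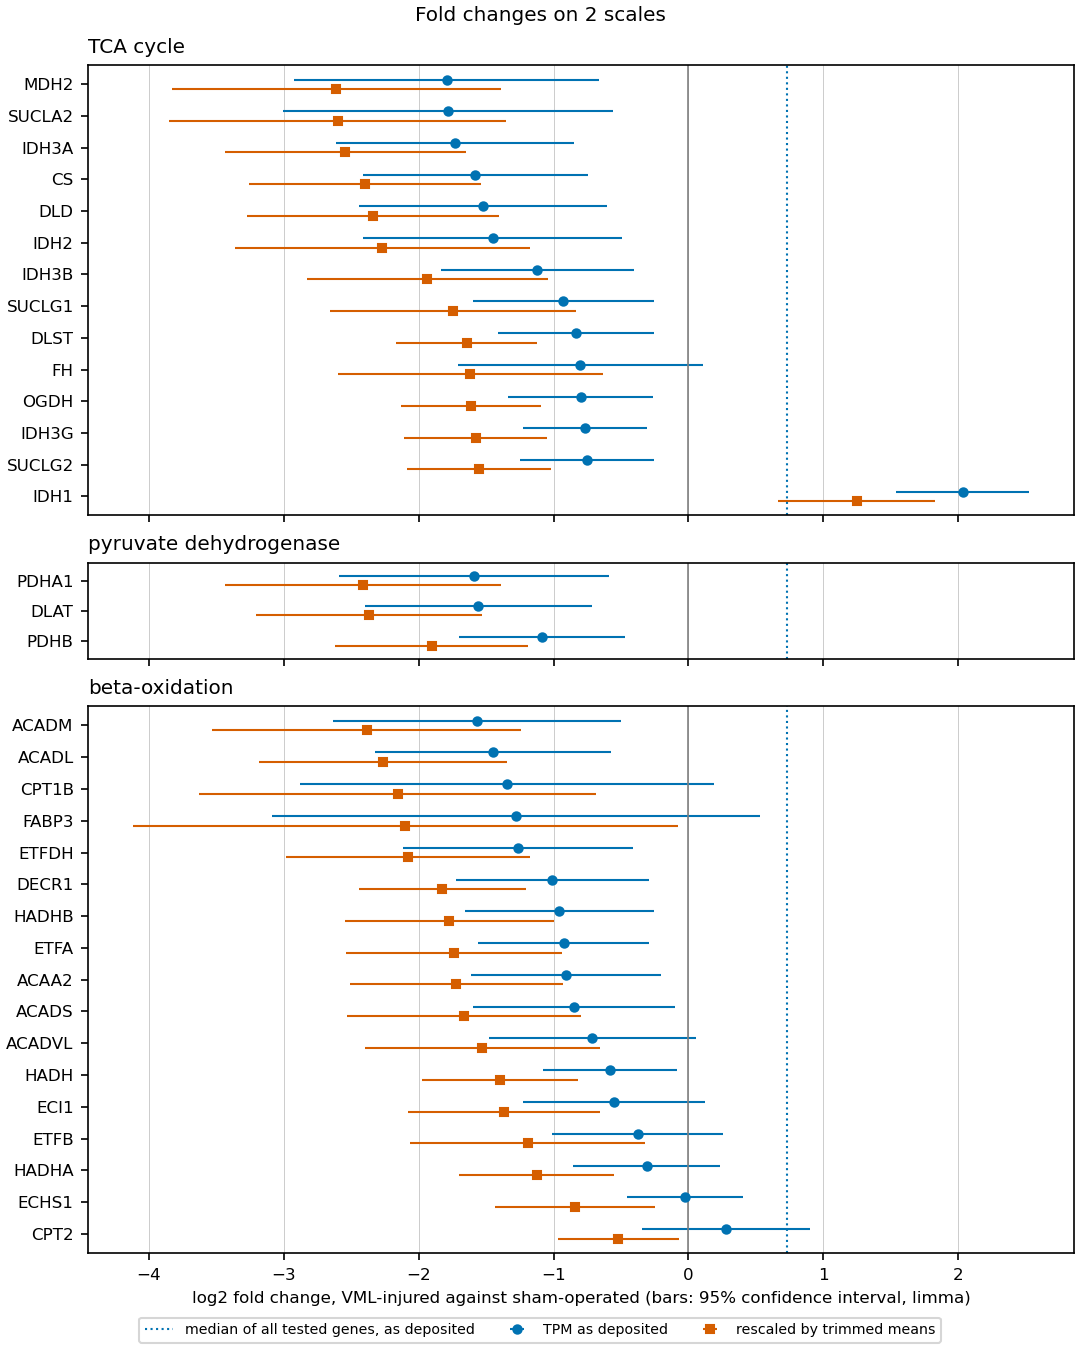
Points are log2 fold changes of VML-injured against sham-operated muscle with 95% confidence intervals from limma, as deposited (circles) and after rescaling by trimmed means (squares), for the 34 genes. The dotted line marks the median of all tested genes as deposited, 0.73, and IDH1 is the sole gene to its right on that scale.

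Each injured group was then set against the same 2 sham-operated limbs. In ECM-repaired muscle 28 of 34 genes fell and IDH1 rose, against 10.0% and 48.0% of all tested genes. In Hya-repaired muscle 9 fell and IDH1 rose, against 3.76% and 33.9%, and in non-repaired muscle 4 fell and IDH1 rose, against 1.18% and 45.1%. The median log2 fold changes of the 34 were -1.18, -0.89 and -0.87. The groups differ in size, with 6, 2 and 2 limbs, and the counts were not compared with each other.

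By pathway, the TCA cycle had 13, 4 and 3 genes that fell in ECM-repaired, Hya-repaired and non-repaired muscle, pyruvate dehydrogenase 3, 3 and 0, and beta-oxidation 12, 2 and 1. The 4 genes that fell in non-repaired muscle were CS, IDH3A, IDH3G and ACADL, with log2 fold changes of -1.27, -1.33, -1.06 and -1.32 (limma's adjusted p = 0.0479, 0.0493, 0.00647 and 0.0496). After rescaling, 32 fell in ECM-repaired muscle (29.7% of all tested genes fell and 29.3% rose), 24 in Hya-repaired (20.0% and 23.1%) and 29 in non-repaired muscle (21.6% and 21.7%), and IDH1 rose in each.

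Single limbs moved these counts. For ECM-repaired muscle 18 genes passed as lower with sham-operated pig 025 left out and 11 with pig 026 left out. For Hya-repaired muscle 23 passed without the limb of pig 017, which had the most muscle fiber transcripts of the injured limbs, and 0 passed without that of pig 016 or without either sham-operated limb. For non-repaired muscle, where 3 of the 4 calls lay close to the threshold, 13 passed without either Hya-repaired limb, 2 without the ECM-repaired limb of pig 018, 1 without either non-repaired limb, sham-operated pig 025 or ECM-repaired pig 013, 021 or 022, and 0 without sham-operated pig 026.

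Repair did not separate the injured groups at the threshold. None of the 34 genes passed with limma between ECM-repaired limbs and injured limbs without ECM, ECM-repaired and non-repaired, ECM-repaired and Hya-repaired, or Hya-repaired and non-repaired limbs, and 0.00% of all tested genes passed in any of the 4. At an unadjusted p under 0.05 there were 2, 1, 1 and 0 of the 34, and 114, 71, 206 and 196 of all tested genes. The median 95% confidence interval of the 34 reached 0.58, 0.74, 0.74 and 0.90 to either side on the log2 scale. For a gene with such an interval, a smaller estimated difference would not pass even without adjustment. Intervals of single genes were narrower or wider. These intervals are not adjusted over all tested genes, so larger differences could be missed as well.

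The smallest unadjusted p between ECM-repaired limbs and injured limbs without ECM belonged to IDH1, ECHS1 and ECI1. Their log2 differences were 0.44 (95% confidence interval 0.036 to 0.837), 0.35 (0.00058 to 0.702) and -0.54 (-1.09 to 0.011), all with an adjusted p of 1.00 in limma. The lowest level of IDH1 among injured limbs was that of pig 017 with Hya, and the lowest levels of ECHS1 were those of both non-repaired limbs and that same limb.

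Within the injured limbs, most of the oxidative enzyme transcripts were higher where muscle fiber transcripts were higher. Each of the 8782 genes was regressed with limma on the log2 of summed fiber markers among the 10 injured limbs, an analysis added after the data were seen, in which fiber markers and enzymes share the library and pig 017 gave 2 limbs. The slope was positive past the threshold for 23 of 34 genes and negative for 0, against 7.00% and 2.81% of all tested genes, with 9 of 14 in the TCA cycle, 3 of 3 in pyruvate dehydrogenase and 11 of 17 in beta-oxidation. The median slope was 0.40 for the 34 and 0.03 for all tested genes.

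A slope of 1 would mean that a transcript doubled for each doubling of fiber markers. CPT1B had a slope of 1.02 (SE 0.184, limma's adjusted p = 0.00373), SUCLA2 of 0.89 (SE 0.0793, limma's adjusted p = 3.11e-05) and MDH2 of 0.79 (SE 0.091, limma's adjusted p = 0.000153). At the other end stood IDH1 at -0.16, ECHS1 at -0.15 and IDH3G at -0.03 (limma's adjusted p = 0.501, 0.339 and 0.891). FABP3 had a slope of 0.71 with an SE of 0.304 (limma's adjusted p = 0.179), and it scattered more about its line than CPT1B.

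With condition as a term in the fit 18 of the 34 slopes passed, after rescaling 21, 16 when both limbs of pig 017 were left out and 17 when its Hya-repaired limb alone was. Of all 8782 tested genes, 454, 657, 388 and 506 had a positive slope that passed, in the same order, beside 615 in the main fit. Without the ECM-repaired limb of pig 014, which had the least fiber transcripts, 15 passed, against 349 positive slopes of all tested genes. Without that limb and the Hya-repaired limb of pig 016, the 2 farthest from the median fiber level, 11 passed, against 215. The median slope of the 34 was then 0.56.

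**Figure D3:**
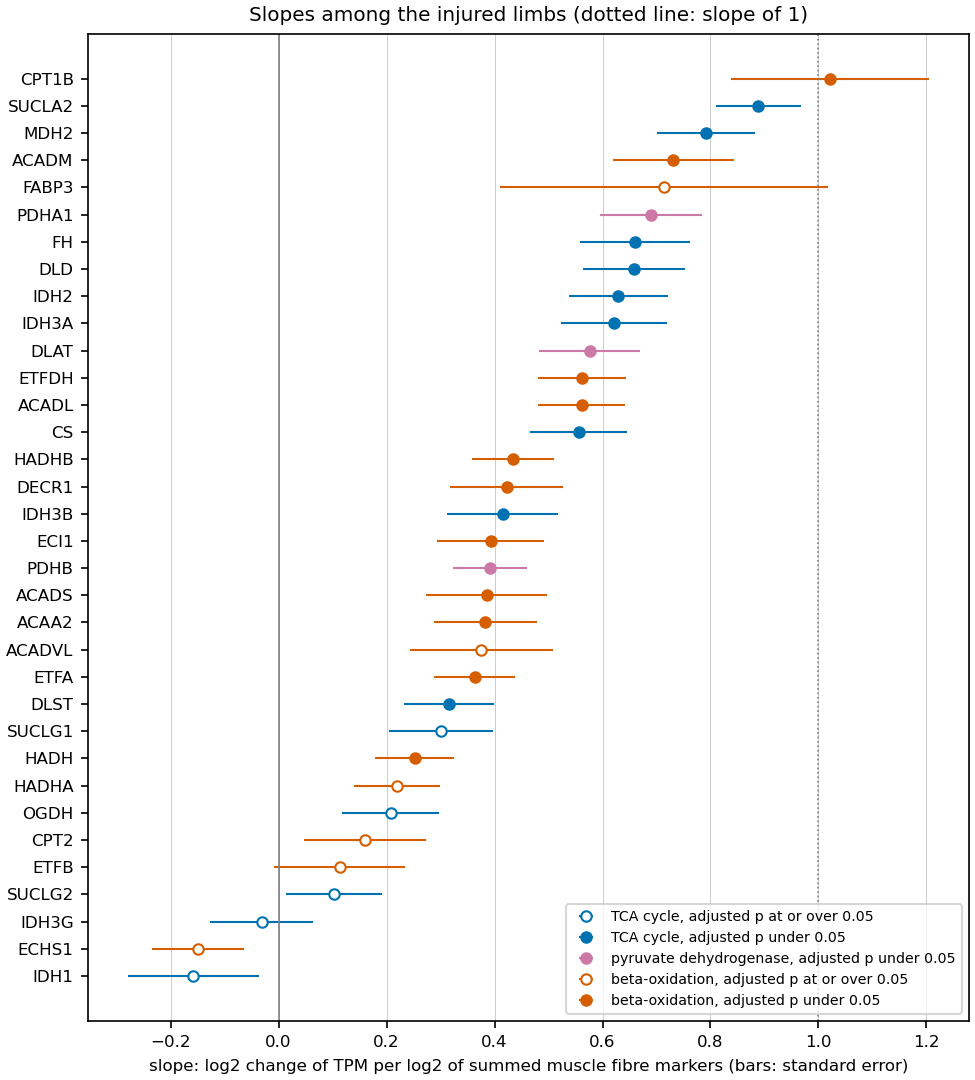
Slopes of log2(TPM + 0.5) on the log2 of summed muscle fiber markers among the 10 injured limbs, with standard errors from limma, for the 34 genes ordered by slope. Filled points have an adjusted p under 0.05 over all tested genes, which holds for 23 genes, and the slopes run from -0.16 for IDH1 to 1.02 for CPT1B.

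**Figure D4:**
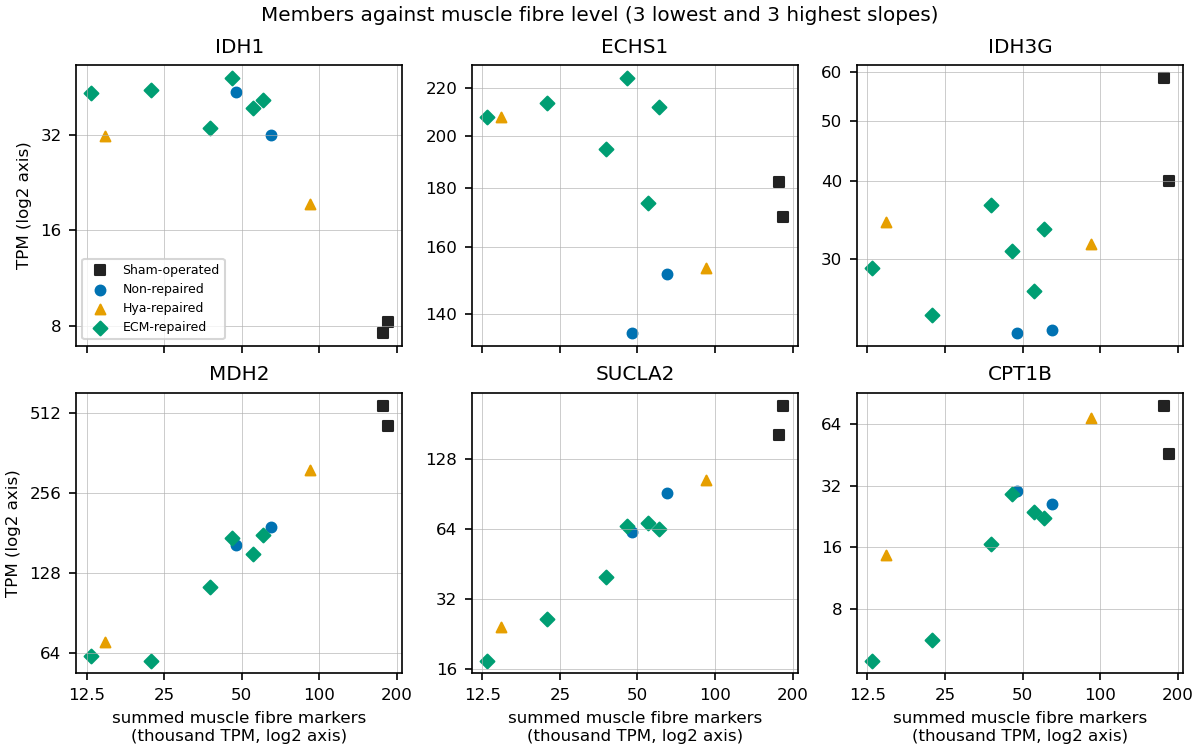
TPM of the 3 genes with the lowest slopes (top) and the 3 with the highest (bottom) against summed muscle fiber markers in all 12 limbs, with both axes on a log2 scale. MDH2, SUCLA2 and CPT1B climb with fiber markers from the ECM-repaired limb of pig 014 to the Hya-repaired limb of pig 017, whereas IDH1 lies between 19.4 and 48.6 TPM in injured limbs and under 9 TPM in sham-operated limbs.

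The enzymes were lower in injured muscle by less than the fiber markers were. Per 1000 TPM of fiber markers, the sum of all the enzymes was 31.9 ± 4.91 TPM (SD, n = 2) in sham-operated and 71.6 ± 31.0 TPM (SD, n = 10) in injured limbs, and all 10 injured limbs lay above both sham-operated limbs. For the TCA cycle the values were 14.9 and 29.2, for pyruvate dehydrogenase 3.51 and 5.73 (9 of 10 limbs above both) and for beta-oxidation 13.5 and 36.7. The highest ratios, 128 and 124 for all enzymes, were in the limbs with the least fiber transcripts, the ECM-repaired limb of pig 014 and the Hya-repaired limb of pig 016. Gene by gene, the mean log2 ratio to fiber markers was higher in injured limbs for 34 of 34, by a median of 1.22, and for 21 of them all injured limbs were above both sham-operated limbs. These ratios are a description with no test, and the share of all tested genes was not computed. Fiber markers had a median log2 fold change of -2.26 and all tested genes of 0.73. A gene at the median of all tested genes would thus also be higher by this ratio, so the counts do not set the enzymes apart. Fiber markers were 3.97-fold lower in injured limbs, and how much of each enzyme transcript came from cells other than fibers was not tested.

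Isozyme pairs were compared as ratios within a limb, into which the scale of a library enters only through the 0.5 added to each TPM before the log2 ratio was taken. IDH1 over IDH3A, the cytosolic over the mitochondrial NAD-dependent enzyme, was 0.0494 and 0.0508 in the sham-operated limbs and 0.242 to 1.94 with a median of 0.929 in the injured limbs, so the 2 sets did not overlap. The log2 ratio was higher by 4.02 in injured limbs. This is a description with no test, since every injured limb already lay above both sham-operated limbs for IDH1 and below both for IDH3A, which fixes the order of the ratio.

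CPT1A is the liver-type form of the carnitine transferase, which most cells other than muscle fibers use. Its own level was 1.83 and 4.29 TPM in sham-operated and 4.59 to 17.7 TPM in injured limbs. CPT1A over CPT1B was 0.0402 and 0.0547 in the sham-operated limbs and 0.0955 to 2.09 (median 0.631) in injured limbs. The difference of the log2 ratios was 3.31, and 10 of 10 injured limbs exceeded both sham-operated limbs (exact two-sided permutation over 66 placements, p = 0.0152, the smallest it can give, and 0.0227 adjusted over the 3 ratios). The adjustment counts IDH1 over IDH3A, whose order was fixed. Every injured limb already lay above both sham-operated limbs for CPT1A, and 9 of 10 lay below both for CPT1B. The p therefore adds no independent evidence to the levels of the 2 genes. The lowest injured limb in both ratios was the Hya-repaired limb of pig 017.

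SUCLG2 over SUCLA2, the GTP-forming over the ATP-forming partner of SUCLG1, was 0.1 and 0.184 in sham-operated and 0.16 to 0.947 (median 0.254) in injured limbs. The log2 difference was 1.16, with 9 of 10 injured limbs above both sham-operated limbs, and it did not pass (exact permutation p = 0.0758, adjusted 0.0758). Leaving out either sham-operated limb leaves too few placements for a ratio to pass, and the adjusted exact permutation p of CPT1A over CPT1B was then 0.136. Ratios of MDH1 to MDH2 and of OGDHL to OGDH are not given, because MDH1 and OGDHL are at or near 0 in most limbs.

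**Figure D5:**
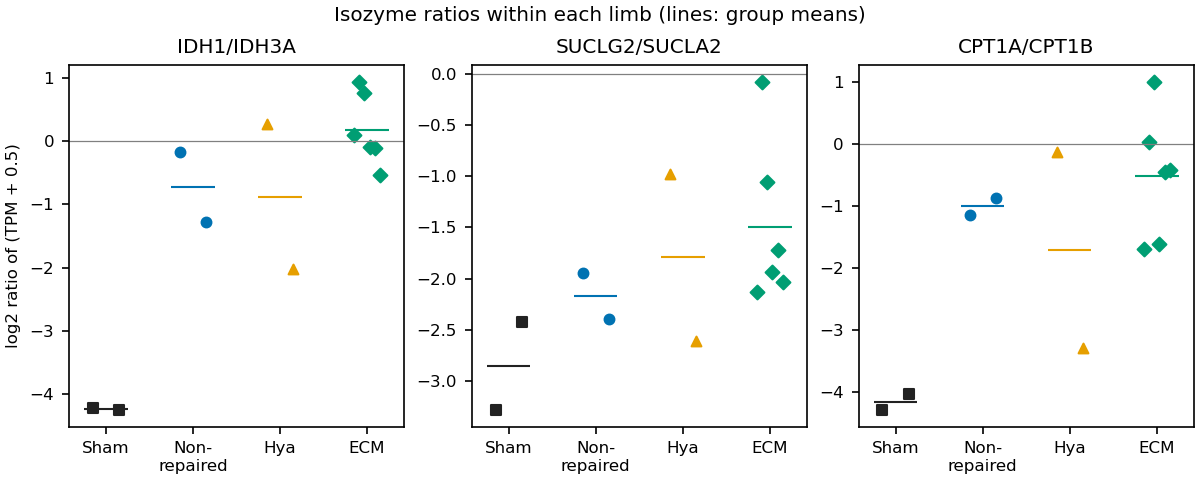
The log2 ratio of (TPM + 0.5) within each limb for 3 pairs of isozymes, with a point per limb and a line at each group's mean. For IDH1/IDH3A and CPT1A/CPT1B all injured limbs lie above both sham-operated limbs, and for SUCLG2/SUCLA2 the Hya-repaired limb of pig 017 lies between them.

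Genes around the pathways were read from lists of their neighbors. Of 17 tested genes of the rest of the TCA cycle and the reactions that feed it, 9 fell (7.66% of all tested genes) and 3 rose (49.4%) in VML-injured muscle, and their median log2 fold change was -0.78. All 4 subunits of succinate dehydrogenase, SDHA, SDHB, SDHC and SDHD, fell, by 1.15, 1.27, 0.80 and 0.78. SLC25A1, which exports citrate to the cytosol, rose by 1.39 (limma's adjusted p = 0.000544; 0.60 after rescaling, adjusted p = 0.0734), and PCK2, which draws oxaloacetate from the cycle in mitochondria, rose by 1.56 (limma's adjusted p = 0.000836) from under 1 TPM. From that level PCK2 could pass the filter only through an injured group, so the filter favored a rise. GLUD1, which also rose, had a log2 fold change of 0.71 as deposited and -0.10 after rescaling. Of the 17, 13 fell and 1 rose after rescaling, against 28.7% of all tested genes in each direction.

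Of 8 tested genes of pyruvate entry and its control, 2 fell (7.66% of all tested genes) and 1 rose (49.4%). PDHX, which anchors DLD to the pyruvate dehydrogenase core, fell by 1.56 on the log2 scale (limma's adjusted p = 0.0104). Pyruvate dehydrogenase kinases switch the complex off, and PDK3 rose by 2.02 (limma's adjusted p = 0.000269; 1.24 after rescaling) while PDK2 fell by 1.27 (limma's adjusted p = 0.00901). PDK4, which fasting induces in muscle, had a log2 fold change of -1.95 with an SE of 1.27 (limma's adjusted p = 0.207). Of the 8, 4 fell and 1 rose after rescaling, against 28.7% of all tested genes in each direction.

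Fatty acid uptake and activation had 5 genes that fell (7.66% of all tested genes) and 4 that rose (49.4%) of 15. The 3 with the smallest p all rose: ACSL5, an acyl-CoA synthetase, by 2.11 (limma's adjusted p = 6.37e-05), SLC27A4, a fatty acid transporter, by 1.99 (limma's adjusted p = 0.000718) and CPT1A by 1.74 (limma's adjusted p = 0.00524), and after rescaling by 1.39, 1.20 and 1.02. The 5 that fell were CD36, the main fatty acid receptor of muscle, by 1.97, ACSL1, the synthetase of oxidative tissue, by 1.98, and SLC27A1, CRAT and MLYCD by 1.22, 1.22 and 0.99. FABP5, a carrier found in many cell types, rose by 0.78 as deposited and had a log2 fold change of -0.04 after rescaling. Of the 15, 7 fell and 3 rose after rescaling, against 28.7% of all tested genes in each direction.

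Among 20 other acyl-CoA and ketone enzymes 5 fell (7.66% of all tested genes) and 2 rose (49.4%). The 3 with the smallest p were ACAA1, a peroxisomal thiolase, at 1.01 (limma's adjusted p = 0.00156; 0.21 after rescaling, adjusted p = 0.326), OXCT1, which lets muscle use ketone bodies, at -1.46 (limma's adjusted p = 0.00509), and ACADSB, which works on branched chains, at -0.96 (limma's adjusted p = 0.0218). After rescaling 14 of the 20 fell and 0 rose, against 28.7% of all tested genes in each direction.

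Of 7 tested regulators of these genes 4 fell (7.66% of all tested genes) and 0 rose (49.4%). PPARGC1B fell by 1.32, PPARGC1A by 1.25, PPARA by 1.31 and ESRRA by 1.13 on the log2 scale (limma's adjusted p = 0.00545, 0.0146, 0.0202 and 0.0425). PPARGC1A and PPARGC1B encode coactivators of mitochondrial genes, and ESRRA and PPARA nuclear receptors that they work with. PPARGC1A was at 2.67 and 2.41 TPM in sham-operated and 0.11 to 1.34 TPM in injured limbs, with no overlap but near the filter on low values. The filter asked for 1 TPM in all limbs of a group, which the sham-operated group met, so it could favor a fall. PPARD, a related receptor found in most tissues, had a log2 fold change of 0.45 (limma's adjusted p = 0.157). Of the 7, 6 fell and 0 rose after rescaling, against 28.7% of all tested genes in each direction.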

How the data were processed

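Whole-tissue RNA of 12 limbs was sequenced by the authors as paired ends. Per the study and its processing notes, reads were pseudoaligned to the UCSC-annotated pig genome with kallisto at default parameters, and the deposited values are TPM for 11506 named genes, which hold 71.5 to 82.7% of a library. TPM keep no depth, so the precision given by depth is unknown.

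Members were taken by name. The members and all lists were chosen with earlier results of these data known. Genes absent under their symbol were looked up by RefSeq names. Genes with at least 1 TPM in every library of at least 1 condition were tested, in 1 fit of log2(TPM + 0.5) over all limbs (limma 3.58.1 in R 4.3.3, with trend and robust estimation), with adjustment over the 8782 tested genes and tests on simulated data. Named genes are the 3, 3 and 4 members with the smallest p of each pathway, IDH1, MDH1, members with positive changes, the 3 most abundant in sham-operated limbs, members whose call changed on rescaling, the 3 smallest p of each further list and the 3 between repaired and other injured limbs. Others were chosen after their values were seen. A gene that this rule names is not reported here. Rescaling trimmed 30% of ratios and 5% of abundance. Alternatives were other scales, pseudocounts, filters, variance models, thresholds and limbs left out.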

Additional observations from a re-analysis of the deposited data

How the results depend on the processing

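The number of members that fell in VML-injured muscle was 14 with a 2-fold threshold, and 5 to 28 with single limbs left out. For ECM-repaired muscle it was 11 to 28 with single limbs left out. For non-repaired muscle it was 29 after rescaling by trimmed means or median of ratios, 7 with named genes at a common sum, 2 with a pseudocount of 0.1, at least 1 TPM in every library or both limbs of pig 017 left out, 1 with no filter or no trend and robust estimation, 22 when only the compared groups were fitted, and 0 to 13 with single limbs left out. For Hya-repaired muscle it was 24 after either rescaling, 0 with only the compared groups, 21 without both limbs of pig 017 and 0 to 23 with single limbs left out. The cause of these shifts was not tested. IDH1 rose against sham in every alternative run. CPT2 turned to -0.52 after either rescaling. ECHS1, near no change, was 0.07845 when both limbs of pig 017 were left out, and -0.09523 to 0.04991 with single limbs left out, positive for pig 017 in either group (0.005883 non-repaired) and for sham-operated pig 026 (0.02759). The number of positive slopes on fiber level was 11 without the 2 limbs farthest from the median and 15 to 23 with single limbs left out. Among all 8782 tested genes it was 215 and 349 to 648. The log2 difference ranged from 3.89 to 4.22 for IDH1/IDH3A and from 3.10 to 3.58 for CPT1A/CPT1B with single limbs left out, and no ratio could pass with 1 sham-operated limb. No member passed between injured groups in any alternative. No paired analysis was possible because pig 017 alone gave limbs to 2 groups. With 2 sham-operated limbs, single-gene calls rest on few animals, and TPM carry no counts to weigh low genes by.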
